A study of Macaca mulatta with 24 samples.

Results

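S100 proteins are small calcium-binding proteins with paired EF-hand motifs that change shape when calcium binds and then attach to partner proteins. S100A8 and S100A9 pair as calprotectin, which neutrophils, monocytes and some stimulated macrophages store in their cytoplasm and release as an alarm signal read by TLR4 and the receptor AGER. S100A4, S100A6 and S100A11 act mostly inside fibroblasts, epithelia and other cells, on annexins, myosin and the cytoskeleton, and S100A1 regulates calcium handling in muscle and other cells.

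The genes described here were the 10 members *S100A1*, *S100A4*, *S100A6*, *S100A8*, *S100A9*, *S100A10*, *S100A11*, *S100A12*, *S100A13* and *S100B*, a gene family taken by symbol, with earlier results of these data known but with no value used in the rule. Of these 10, 6 had a matched row among the 32386 genes of the table of counts, and all 6 passed the filter on low counts that left 15207 genes for testing. *S100A10*, *S100A12*, *S100A13* and *S100B* had no matched identifier and were not analysed here, so the third calgranulin, *S100A12*, and the annexin A2 partner *S100A10* are missing from every count below.

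RNA-seq was done on omental WAT, the fat of the abdominal apron, biopsied in year 3 of treatment from 24 young adult female rhesus macaques, whose labels give an age of 4 years and for which the methods of the study give a higher age. The controls (*C*) carried cholesterol implants and ate monkey chow, the *T* group carried testosterone implants and ate chow, the *WSD* group carried cholesterol implants and ate a high-fat Western-style diet, and the *T* + *WSD* group had testosterone implants and that diet, with 6 animals in each group. Every animal therefore carried an implant, and the 6 per group were chosen by the authors as representative of larger groups. The RNA came from whole tissue, so fewer cells of a type and less RNA per cell cannot be told apart in any result below.

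Total counts per animal ran from 6899185 to 28270776, with a median of 20630512.5. In 8 libraries, 2 in each group, 1 unnamed gene (ENSMMUG00000038258) took 9.92% to 54.7% of the counts, against 0.879% to 2.51% in the other 16. These 8 are called the library batch in what follows. That name stands only for a split made here at a share of 5%, and the labels used here name no batch. Among the adipocyte markers, all 9 matched genes were detected in every group, and their summed level was lowest in control animal 1, at 2170 CPM against 9294 to 25278 CPM in the other 23 animals. CPM means counts per 1000000 after TMM scaling. The same animal had the highest summed level of the mesothelial markers, the genes of the sheet of cells that covers the omentum, at 38894 CPM against 235 to 17571 CPM in the others. Over all animals the mesothelial sum came mostly from 1 gene, *ITLN1*. Results of the S100 members that rest on animal 1 of *C* are given below with and without it.

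The *T* + *WSD* group was compared with *C* to ask what both treatments together did. Of the 6 S100 genes, *S100A8*, *S100A9* and *S100A6* were lower in *T* + *WSD* and none was higher. A DEG had an adjusted p under 0.05 by edgeR's quasi-likelihood test and a fold change over 1.5. By that definition 10% of all tested genes were DEGs in this comparison and 5.29% were lower, so that 3 of 6 lower stood above the background share, in a family too small to read more from the count. Among the 3, *S100A8* and *S100A9* varied together from animal to animal, as described below, and do not count as separate results. At an unadjusted p under 0.05, 3 members were lower and 1 was higher. The median log2 fold change of the 6 was −0.80, against −0.04 over all tested genes.

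**Figure D1:**
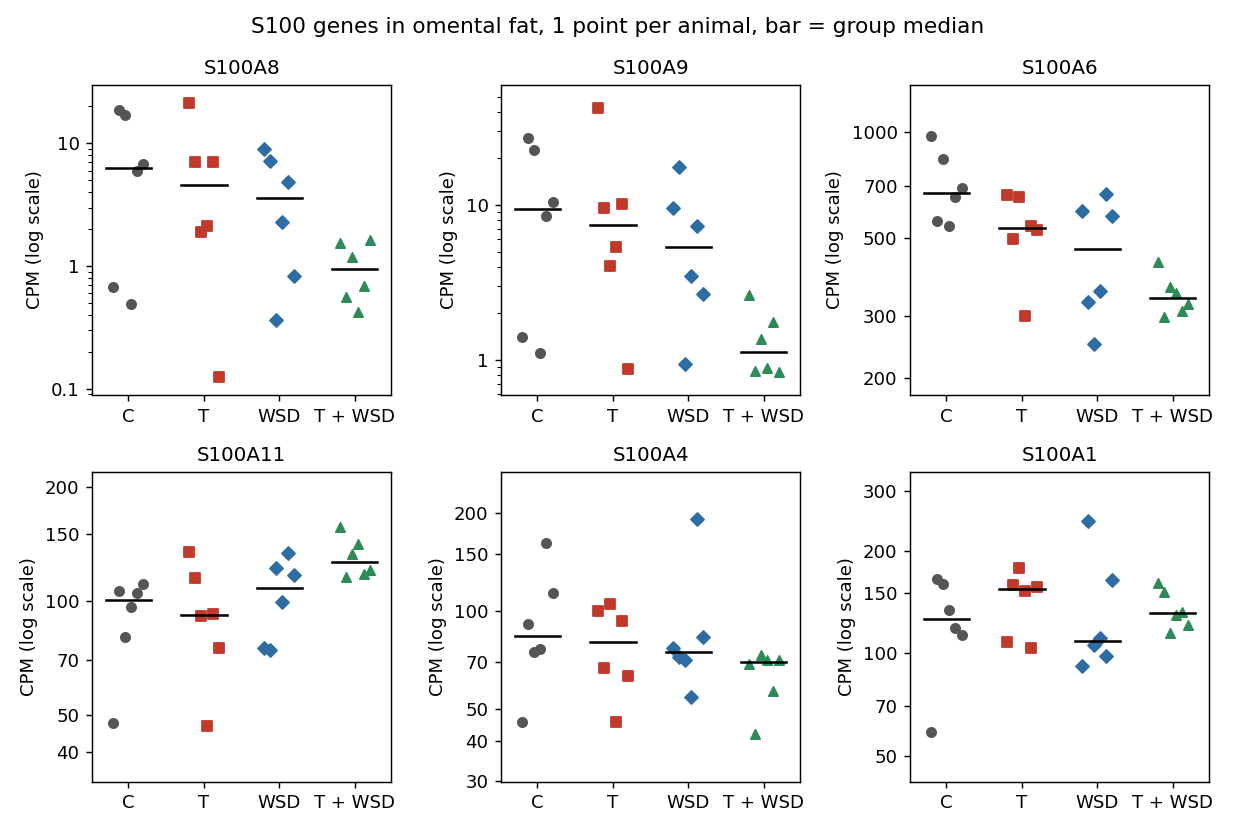
Level of the 6 measured S100 genes in each animal, in CPM on a log scale, for *C*, *T*, *WSD* and *T* + *WSD* (6 animals each). Bars mark group medians. *S100A8* and *S100A9* spread widely in *C*, *T* and *WSD* and sat at 0.421 to 1.62 CPM and 0.832 to 2.63 CPM in *T* + *WSD*. For *S100A6* every *T* + *WSD* animal lay below every control, and for *S100A11* every one lay above.

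*S100A8* (ENSMMUG00000044778) encodes the smaller subunit of calprotectin. It was scarce in this tissue, at 2 to 401 counts per animal. In *C* its level ran from 0.495 to 18.5 CPM with a median of 6.36 CPM, and in *T* + *WSD* from 0.421 to 1.62 CPM with a median of 0.942 CPM. The *T* + *WSD* animals were uniformly low, while the controls were divided. Control animals 1 and 4, at 0.675 and 0.495 CPM, lay within the *T* + *WSD* range, and the other 4 lay between 5.97 and 18.5 CPM. Only 1 of the 6 *T* + *WSD* animals lay below every control. The fitted level was 7.86-fold lower in *T* + *WSD* (log2 fold change −2.97, SE 0.98, 95% interval −5.00 to −0.95, edgeR adjusted p = 0.0394). This call was lost when control animal 2 (adjusted p = 0.0777), control animal 3 (adjusted p = 0.0908) or any 1 of the 6 *T* + *WSD* animals (adjusted p from 0.0530 to 0.0825) was left out of the edgeR fit.

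*S100A9* (ENSMMUG00000006868) encodes the larger calprotectin subunit, and it followed the same pattern at 3 to 568 counts per animal. In *C* its level ran from 1.11 to 26.9 CPM (median 9.47 CPM), and in *T* + *WSD* from 0.832 to 2.63 CPM (median 1.12 CPM). The lowest controls, animals 4 and 1 at 1.11 and 1.41 CPM, again overlapped the *T* + *WSD* group, of which 3 of 6 animals lay below every control. *S100A9* was 8.43-fold lower in *T* + *WSD* (log2 fold change −3.08, SE 0.88, 95% interval −4.90 to −1.25, edgeR adjusted p = 0.0206). The call held with each of the 24 animals left out in turn, with adjusted p up to 0.0498 in edgeR. Without control animal 1 the log2 fold changes against *C* were −3.30 for *S100A9* and −3.20 for *S100A8*.

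The spread of both genes was as much a feature of the data as their level. Over the 24 animals *S100A8* ranged 171-fold and *S100A9* 51.0-fold, against 3.34-fold to 4.59-fold for the other 4 S100 genes. The coefficient of variation of *S100A8* CPM was 95.1% among the controls, 118% with testosterone, 86.2% with the diet and 51.6% with both. For *S100A9* it was 91.1%, 127%, 88.1% and 51.4% in the same order. The lowest counts, 2 and 3, were those of *T* + *WSD* animal 8, which had the fewest total counts of all libraries.

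The levels of the 2 calprotectin genes varied together from animal to animal. After the group means were removed, Pearson's r of their log2 CPM over the 24 animals was 0.957 (Spearman's rho 0.927), and it was 0.945 over the 16 libraries outside the library batch. Such correlations are given as descriptions, since the points share library depth and tissue makeup. *S100A9* had more counts than *S100A8* in 23 of 24 animals, with a median ratio of 1.62. The median ratio was 1.498 among the controls, 2.05 with testosterone, 1.98 with the diet and 1.60 with both. The exception was *T* + *WSD* animal 12, with 20 counts of *S100A9* and 39 of *S100A8*. On the RefSeq annotation of T2T-MMU8v2.0, an assembly other than the one used for the counts, *S100A8* and *S100A9* stand on either side of *S100A12* on chromosome 1.

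**Figure D2:**
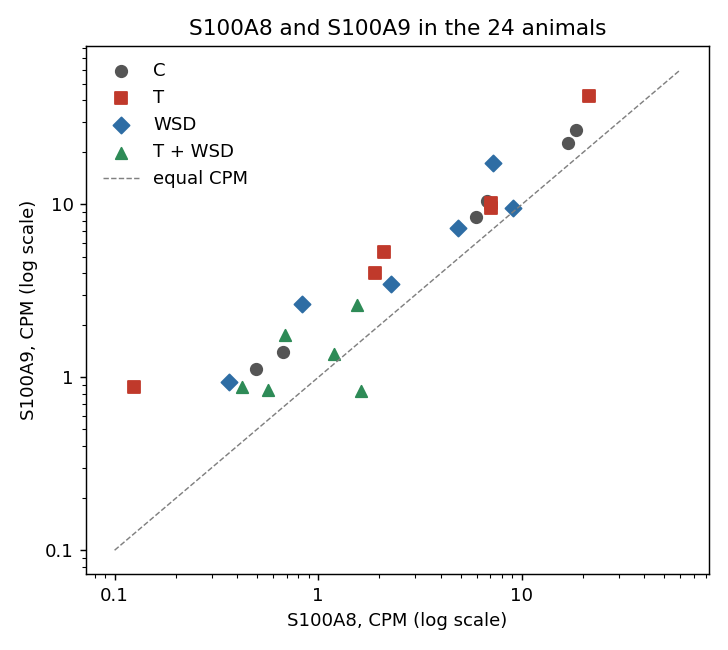
*S100A8* (x axis) against *S100A9* (y axis) in the 24 animals, both in CPM on log scales, with a dashed line at equal CPM. All but 1 animal lie above the line, and the 6 *T* + *WSD* animals cluster at the low end together with 2 controls and the lowest *T* and *WSD* animals.

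*S100A6* (ENSMMUG00000008917), or calcyclin, binds annexins and the ubiquitin-ligase adaptor CACYBP. Its level ran from 540 to 973 CPM in *C* (mean 709 ± 168, SD, n = 6) and from 297 to 427 CPM in *T* + *WSD* (345 ± 46.6, n = 6). All 6 *T* + *WSD* animals lay below every control, a separation in that direction that 4.12% of all tested genes showed. *S100A6* was 2.06-fold lower (log2 fold change −1.04, SE 0.22, 95% interval −1.50 to −0.58, edgeR adjusted p = 0.00545). Without control animal 1, which had the highest *S100A6* level of all animals, the log2 fold change was −0.91 (adjusted p = 0.0195), and the call held with each of the 24 animals left out in turn.

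*S100A6* was the member that moved with the mesothelial markers. Their summed level was lower as well, from 2726 to 38894 CPM in *C* (median 7581 CPM) to 235 to 3070 CPM in *T* + *WSD* (median 970 CPM). That sum came mostly from *ITLN1*, with 2481438 counts over the 24 animals against 139151 for the next gene. Of the 10 matched genes 8 were lower DEGs. The called ones with the smallest adjusted p were *KRT19* (log2 fold change −2.66), *KRT18* (−3.15), *KRT8* (−2.76), which encode keratins of simple epithelia, and *MSLN* (−2.99), which encodes mesothelin. With group means removed, log2 *S100A6* followed the mean log2 CPM of this list (r = 0.698, rho 0.730, 24 animals). Without the 2 animals farthest from the median of *S100A6* with group means removed, r was 0.554. With that list mean as a covariate, the log2 fold change of *S100A6* in *T* + *WSD* against *C* was −0.17 (edgeR adjusted p = 0.999), while those of *S100A8* and *S100A9* were −2.59 and −2.78 (both adjusted p = 0.999). The list mean differed between the groups itself, and 0 of the 15207 genes were DEGs in that edgeR fit, with 570 at an unadjusted p under 0.05. The part of mesothelial cells in the *S100A6* difference was not tested.

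**Figure D3:**
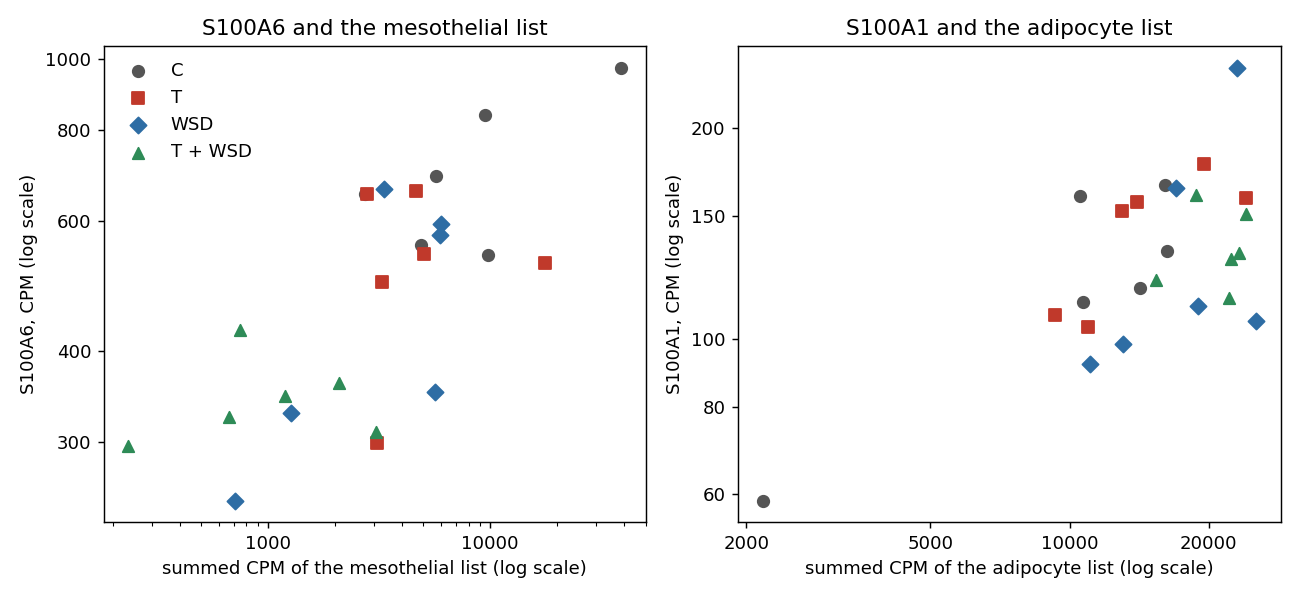
Left, *S100A6* against the summed level of the mesothelial markers, which came mostly from *ITLN1*. Right, *S100A1* against the summed level of the adipocyte markers. All axes are in CPM on log scales, with 1 point per animal. In the left panel the 6 *T* + *WSD* animals sit low on both axes, at up to 427 CPM of *S100A6* and 3070 CPM of mesothelial markers, and control animal 1, with 38894 CPM of mesothelial and 2170 CPM of adipocyte markers, stands at an extreme of each panel.

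The neutrophil and monocyte markers overlapped between the groups in their summed level, while some single genes were lower. Their summed level ran from 41.5 to 300 CPM in *C* (median 125 CPM) and from 62.5 to 238 CPM in *T* + *WSD* (median 140 CPM), a sum made up mostly of *VCAN*, which fibroblasts also express. Of the 11 tested genes 2 were lower DEGs in *T* + *WSD*, against a background of 5.29%, among them *PADI4*, a protein-citrullinating enzyme of granulocytes (log2 fold change −1.64, SE 0.47, edgeR adjusted p = 0.0220). The other 9 had positive log2 fold changes, none of them called. Genes that define neutrophils were scarce. *MMP8* had 0 counts in every animal of *C* and *T* + *WSD*, and *CXCR1* had 1 to 11 counts in *C* and 0 to 6 in *T* + *WSD*. *CSF3R*, the receptor of a granulocyte growth factor, was at 1.96 to 4.39 CPM in *C* and 1.86 to 4.47 CPM in *T* + *WSD*. The macrophage markers summed to 209 to 1274 CPM in *C* and 567 to 1076 CPM in *T* + *WSD*, with *MSR1*, a scavenger receptor, higher (log2 fold change 1.66, edgeR adjusted p = 0.0269) and none of the 10 called lower.

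Within groups, both calprotectin genes did follow these lists. Over the 24 animals, with group means removed, *S100A8* had r = 0.791 with the neutrophil and monocyte list and 0.813 with the macrophage list, and *S100A9* had 0.781 and 0.747. With the neutrophil and monocyte list mean as a covariate, the log2 fold changes against *C* were −3.24 for *S100A8* (edgeR adjusted p = 0.00787) and −3.17 for *S100A9* (edgeR adjusted p = 0.00420), as large as without it. With the macrophage list mean they were −3.12 and −3.09. Such a mean gives each gene of a list the same weight, scarce ones included. The part of neutrophils, monocytes and macrophages in the *S100A8* and *S100A9* differences was not tested.

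*S100A11* (ENSMMUG00000004441) encodes a protein that binds annexin A1 and takes part in membrane repair. Its *T* + *WSD* values lay above the controls and not below them, with 47.6 to 111 CPM in *C* (91.1 ± 23.8, SD, n = 6) and 116 to 156 CPM in *T* + *WSD* (131 ± 15.9, n = 6). The 6 *T* + *WSD* animals each exceeded the highest control, as did those of 3.49% of tested genes, but the difference missed both thresholds (log2 fold change 0.52, SE 0.22, 95% interval 0.08 to 0.97, edgeR adjusted p = 0.0947). Without control animal 1, the lowest control, its log2 fold change was 0.41.

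*S100A4* (ENSMMUG00000010979), also known as fibroblast-specific protein and found in fibroblasts and macrophages, had 45.5 to 162 CPM in *C* (median 84.0 CPM) and 41.8 to 73.5 CPM in *T* + *WSD* (median 69.7 CPM). The groups overlapped, and the log2 fold change was −0.55 (SE 0.29, 95% interval −1.16 to 0.05, edgeR adjusted p = 0.195). *S100A1* (ENSMMUG00000008145) had 58.8 to 166 CPM in *C* (median 126 CPM) and 114 to 161 CPM in *T* + *WSD* (median 131 CPM), with a log2 fold change of 0.11 (95% interval −0.37 to 0.60, edgeR adjusted p = 0.791) whose sign turned without control animal 1. The interval of *S100A1* does not reach the estimate of *S100A6* (−1.04), while that of *S100A4* does. Without control animal 5, the highest control, the log2 fold change of *S100A4* was −0.33.

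The comparisons of *T* and of *WSD* with *C*, which ask what each treatment did alone, called none of the 6 members by edgeR or DESeq2, in a background of 0% of tested genes by edgeR. These comparisons and that of *T* + *WSD* share the same 6 controls, so their values are set side by side and not counted as separate evidence. At an unadjusted p under 0.05, *S100A6* alone was lower in *WSD* and no member differed in *T*. Over all tested genes 2807 had such a p in *WSD* against *C* and 1312 in *T* against *C* by edgeR, while DESeq2 called 238 and 7 DEGs.

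**Figure D4:**
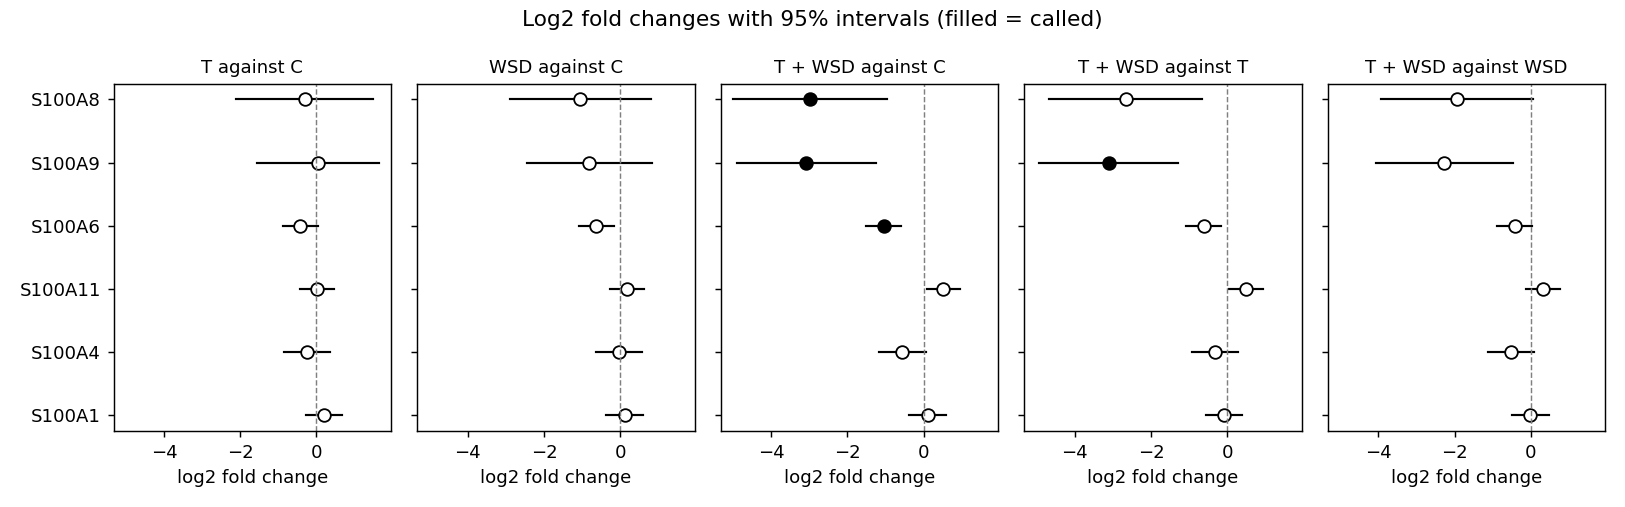
Log2 fold change of each S100 gene with its 95% interval in 5 comparisons. Filled points are DEGs by edgeR, namely *S100A8*, *S100A9* and *S100A6* in *T* + *WSD* against *C* and *S100A9* in *T* + *WSD* against *T*. The intervals of *S100A8* and *S100A9*, such as −5.00 to −0.95 for *S100A8* in *T* + *WSD* against *C*, are the widest in each comparison.

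For *S100A6*, *WSD* animals ran from 250 to 664 CPM (461 ± 171, SD, n = 6) and *T* animals from 299 to 661 CPM (530 ± 132, n = 6). In *WSD* 3 of 6 animals lay below every control and the other 3 within the control range. In *T* 3 of 6 also lay below every control. The highest animal of either group lay below the control median of 673 CPM. The log2 fold change was −0.62 in *WSD* (95% interval −1.08 to −0.17, edgeR adjusted p = 0.167) and −0.42 in *T* (−0.88 to 0.03, edgeR adjusted p = 0.595). By group mean *S100A6* was ordered *C*, *T*, *WSD*, *T* + *WSD*. No comparison of 2 groups that differ in 1 treatment called it in the main edgeR fit. The adjusted p was 0.0842 for *T* + *WSD* against *T* and 0.293 for *T* + *WSD* against *WSD*. *T* and *WSD* overlapped and were not tested against each other.

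*S100A8* ran from 0.125 to 21.4 CPM in *T* (median 4.57 CPM) and from 0.367 to 9.01 CPM in *WSD* (median 3.57 CPM). *S100A9* ran from 0.875 to 42.5 CPM in *T* (median 7.43 CPM) and from 0.937 to 17.5 CPM in *WSD* (median 5.37 CPM). Each of these groups overlapped both the controls and the *T* + *WSD* group. Their log2 fold changes against *C* were −0.31 and 0.04 in *T*, and −1.04 and −0.80 in *WSD*. The 95% interval of *S100A9* in *T* ran from −1.56 to 1.63 and that of *S100A8* in *WSD* from −2.89 to 0.80, so a change of more than 1.5 log2 units was within range for each.

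For *S100A11*, *S100A4* and *S100A1* the fitted differences under the single treatments were small. *S100A11* had medians of 91.6 CPM in *T* and 108 CPM in *WSD*, with log2 fold changes of 0.02 and 0.19. *S100A4* had medians of 80.3 and 74.9 CPM, with log2 fold changes of −0.25 and −0.03. *S100A1* had medians of 155 and 109 CPM, with log2 fold changes of 0.20 and 0.12. The smallest edgeR adjusted p among these 6 comparisons was 0.666.

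Adding testosterone to the diet was read from *T* + *WSD* against *WSD*, where 0.815% of all tested genes were DEGs by edgeR and no S100 member was among them. *S100A9* had a log2 fold change of −2.27 (SE 0.87, 95% interval −4.07 to −0.47, edgeR adjusted p = 0.144), the only member with an unadjusted p under 0.05, and DESeq2 called it (adjusted p = 0.0478). *S100A8* was at −1.93 (edgeR adjusted p = 0.270), *S100A4* at −0.52, *S100A6* at −0.42, *S100A11* at 0.33 and *S100A1* at −0.01. Without *WSD* animal 23, the highest for *S100A4*, its log2 fold change was −0.16. None of these 5 was called by either tool, and 3039 of the tested genes had an unadjusted p under 0.05 by edgeR.

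Adding the diet to testosterone was read from *T* + *WSD* against *T*, with 3.77% of tested genes as DEGs and 1.43% lower. *S100A9* was the 1 member called, 8.64-fold lower in *T* + *WSD* (log2 fold change −3.11, SE 0.88, 95% interval −4.93 to −1.29, edgeR adjusted p = 0.0389). This rested on few animals, since *T* animal 13 alone had 42.5 CPM against 10.2 CPM in the next. Without it the log2 fold change was −2.10 (edgeR adjusted p = 0.119), and the call was also lost without *T* animal 17 (adjusted p = 0.0552) or any 1 of the 6 *T* + *WSD* animals (adjusted p from 0.0535 to 0.0835). *S100A8* (−2.66, edgeR adjusted p = 0.0919) and *S100A6* (−0.62, edgeR adjusted p = 0.0842) had unadjusted p values under 0.05 in the same direction, and *S100A11* in the other (0.50, edgeR adjusted p = 0.145). By DESeq2, *S100A8* was called too (adjusted p = 0.0233).

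The interaction term, which asks whether the joint treatment differed from the sum of the single ones on the log2 scale, had an adjusted p under 0.1 in 0.809% of tested genes by edgeR and in none of the 6 members. DESeq2 called 0 of the 6, and 0 had an unadjusted p under 0.05 by edgeR, against 2050 of all tested genes. The estimate for *S100A9* was −2.31 (SE 1.16, 95% interval −4.70 to 0.09, edgeR adjusted p = 0.393) and that for *S100A8* −1.62 (95% interval −4.29 to 1.05). For *S100A6* it was 0.00 (95% interval −0.64 to 0.64), the value that the sum of both single effects gives. A departure from additivity was thus not detectable for any member, and the wide intervals of *S100A8* and *S100A9* leave a large one within range.

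The library batch left the size of the 3 differences against *C* in place. In the 16 libraries outside it the log2 fold changes were −1.001 for *S100A6*, −2.91 for *S100A8* and −3.11 for *S100A9*, with edgeR adjusted p of 0.0809, 0.145 and 0.0772. In the 8 libraries of the batch, 2 a group, they were −1.06, −2.96 and −2.81, with adjusted p of 0.370, 0.437 and 0.449. In *T* + *WSD* against *C* none of the 6 members was a DEG within either set of libraries, where 78 and 0 of all genes were. With the batch as a covariate all 3 stayed DEGs.

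Other S100 genes were taken from a list of 9, of which 6 had a matched row and 3 were tested. *S100A3*, best known from hair cuticle, was lower in *T* + *WSD* than in *C* (0.475 ± 0.146 against 1.74 ± 0.804 CPM, SD, n = 6 each, log2 fold change −1.84, SE 0.45, edgeR adjusted p = 0.0101), with 5 of 6 animals below every control. Its counts were 1 to 54 per animal in these groups. *S100A16*, a widely expressed member linked to adipogenesis in mice, had 68.4 to 90.0 CPM in *T* + *WSD* and 94.5 to 131 CPM in *C*. Its groups did not overlap, and its log2 fold change of −0.38 missed the test (edgeR adjusted p = 0.0558). *S100A2* was at −0.33 (edgeR adjusted p = 0.733). *S100P* was too scarce to be tested, with 64 counts over the 6 controls and 8 over the 6 *T* + *WSD* animals, *S100A5* had at most 3 counts in any animal, and *S100G* had none in all 24. *S100A3*, *S100A4*, *S100A5* and *S100A6* stand in that order on chromosome 1 of T2T-MMU8v2.0, and because the strand setting of the counting is not given in the sources used here, reads shared between such neighbours cannot be told apart.

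The binding partners of S100 proteins were a list of 18 genes with 15 tested. In *T* + *WSD* against *C*, where 10% of all tested genes were DEGs and 5.29% were lower, 2 partners were higher DEGs and none was lower. These were the calcium-release channels *RYR1* (15.8 ± 3.57 against 8.76 ± 3.31 CPM, SD, n = 6 each, log2 fold change 0.85, edgeR adjusted p = 0.0134) and *RYR2* (12.1 ± 3.70 against 4.01 ± 2.89 CPM, log2 fold change 1.57, edgeR adjusted p = 0.0173), which S100A1 binds in muscle. *RYR2* was also higher in *T* + *WSD* than in *WSD* (log2 fold change 2.24, edgeR adjusted p = 0.0232) and than in *T* (1.54, edgeR adjusted p = 0.0384), while *S100A1* itself was not called in any comparison. The annexins, which bind S100A6, S100A10 and S100A11, had log2 fold changes against *C* of 0.37 for *ANXA1*, 0.00 for *ANXA2*, 0.14 for *ANXA6* and −0.07 for *ANXA11*, and none was called. *CACYBP*, named for binding calcyclin, was at −0.33 (edgeR adjusted p = 0.127), and *MYH9*, the non-muscle myosin that S100A4 binds, at 0.22 (edgeR adjusted p = 0.215). The median of the 15 was 0.14, against −0.04 over all tested genes.

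All 8 receptors listed for extracellular S100 proteins were tested, and 1 was called in *T* + *WSD* against *C*, where 10% of all tested genes were DEGs. This was *ALCAM*, an adhesion molecule related to AGER, which was lower (52.0 ± 18.8 against 141 ± 161 CPM, log2 fold change −1.44, edgeR adjusted p = 0.0321). Its control SD exceeded the control mean, and its values with single animals left out are not given here. The calprotectin receptor gene *TLR4* was at 0.18 (edgeR adjusted p = 0.810), its co-receptor *LY96* at 0.24 (adjusted p = 0.548) and *AGER* at 0.23 (adjusted p = 0.656). *CD36*, a fatty acid transporter that also binds calprotectin, was at 0.77 (adjusted p = 0.0651), with 5 of 6 *T* + *WSD* animals above every control. No receptor was called by edgeR in the other 5 comparisons, where 0 to 2 of the 8 had an unadjusted p under 0.05.

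The genes most like each member were found by Pearson's r of log2 CPM over the 24 animals with group means removed. For *S100A8* they were *FGR*, a myeloid Src-family kinase (r = 0.881), *SOAT2*, a cholesterol-esterifying enzyme (0.880), and *NCF1*, a subunit of the phagocyte NADPH oxidase (0.868). For *S100A9* they were *FCAR*, the IgA receptor of myeloid cells (0.841), *SOAT2* (0.831) and *FGR* (0.825). *S100A6* was most like *CLIC1* (0.864), *PLP2* (0.853) and *SMTNL2* (0.853), and *S100A4* most like *LMNA*, the gene of lamin A (0.871), *GALNT9* (0.869) and *VCAN*, a matrix proteoglycan (0.860). Each set of neighbours belonged to its own member, apart from the calprotectin pair, which shared *FGR* and *SOAT2*.

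Between members, the other correlations were weaker than that of the calprotectin pair. *S100A4* and *S100A11* had r = 0.679 over the 24 animals with group means removed, and *S100A4* and *S100A6* had 0.403. *S100A4* followed the fibroblast list (r = 0.783) and, less closely, the macrophage list (0.581). *S100A11* followed the fibroblast (0.630), macrophage (0.574) and adipocyte (0.551) lists, and *S100A1* followed the adipocyte list (0.704). For the last of these, control animal 1 was lowest in both. Without the 2 animals farthest from the median of *S100A1* with group means removed, r was 0.562. The fibroblast markers summed to 6460 to 18305 CPM in *C* and 6125 to 12812 CPM in *T* + *WSD*, with *DPT* higher and *DPP4* lower of 10 tested. The adipocyte markers summed to 2170 to 16273 CPM in *C* and 15349 to 24099 CPM in *T* + *WSD*, with the leptin gene *LEP* higher of 9 tested. The part of these cell types in the levels of *S100A4*, *S100A11* and *S100A1* was not tested.

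Of 8 endothelial markers 5 were higher DEGs in *T* + *WSD* against *C*, where 10% of all tested genes were DEGs in either direction. The 5 were led by *PECAM1* (log2 fold change 0.88) and *VWF* (0.97). Between the members and that list, r ran from −0.451 for *S100A9* to 0.194 for *S100A11*. Of 7 matched Schwann cell and nerve genes, included for *S100B*, only *MBP* was called in that comparison, and it was lower (−0.79). The list leaned the other way, with 5 of the 7 at positive log2 fold changes. The median of the 7 was 0.31, against −0.04 over all tested genes. The epidermal list was included because skin expresses S100 genes strongly. Of its 8 genes 5 were matched, while *KRT5*, *KRT14* and *SPRR3* had no matched row. The matched genes, mostly *KRT10*, summed to at most 13.3 CPM in any animal, with *KRT4* and *CRNN* at 0 in all 24.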

How the data were processed

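Omental WAT of 24 animals was measured by RNA-seq, 1 library per animal. Per the labels and the methods of the study, ribosomal RNA was depleted (TruSeq with Ribo-Zero), and the authors checked single reads with FastQC 0.11.5, trimmed them with Trimmomatic 0.36, aligned them to rheMac8 with STAR 2.5.2b and tested them with DESeq2 1.18.1. They deposited raw counts per gene without normalization. The counting tool and its strand setting are not given in the sources used here. Counts of overlapping or near-identical genes are therefore uncertain. No genome positions or transcript lengths were used, so levels are not compared between genes other than as counts of *S100A8* and *S100A9*.

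Symbols were matched to Ensembl identifiers by a gene name table or, failing that, by the paper's supplementary tables, and where several identifiers shared a symbol the one with the most counts was kept. TMM-scaled counts went through the quasi-likelihood F-test of edgeR 4.0.16 under R 4.3.3 (robust=TRUE and legacy=TRUE in glmQLFit, two-sided), in 1 fit of 4 groups. Genes were first filtered with filterByExpr (min.count 10, min.total.count 15). Adjusted p values are Benjamini-Hochberg values over the 15207 tested genes. They judge each group difference against the spread between animals. Intervals are 95% intervals of the fitted log2 fold change. DEGs passed 0.05 after adjustment and changed more than 1.5-fold, and interaction genes passed 0.1. Correlations used log2 CPM with a prior count of 2.

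The members and lists were chosen with earlier results of these data known. Named genes were all members in every comparison, other S100 genes called, from each list at most the 4 called genes with the smallest adjusted p, and the 3 genes most like *S100A8*, *S100A9*, *S100A6* and *S100A4*. Values of uncalled binding partners and receptors, the further scarce S100 genes and *MMP8*, *CXCR1* and *CSF3R* were added after their values were seen. Alternatives were DESeq2 1.42.0, RLE or upper-quartile scaling, leaving out the abundant unnamed gene, no filter or 10 counts in every animal, robust=FALSE, legacy=FALSE, a fit to the compared groups alone, the library batch as a covariate or each of its parts alone, the mesothelial, neutrophil and monocyte or macrophage list as a covariate, no fold threshold or a fold over 2, and each animal left out. The macrophage covariate was chosen after seeing the data. The result of 1 gene of the lists is not reported here. The bisulfite sequencing was not used here.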

Additional observations from a re-analysis of the deposited data

Results flagged for a closer look

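Of the 24 sets of 6 CPM values examined, 6 genes in 4 groups, 3 held an animal far from the other 5. A chance rate of about 1 in 20 sets holds only for separate sets of normally distributed values. Gaps were taken on CPM and not on a log scale, and CPM in *T* had coefficients of variation of 118% for *S100A8* and 127% for *S100A9*. These genes varied together and were flagged in the same animal. The 3 sets are therefore given as descriptions and not compared with that rate. *S100A4* was at 192 CPM in *WSD* animal 23, against 83.1 CPM in the next *WSD* animal. *S100A8* was at 21.4 CPM in *T* animal 13, against 7.09 CPM in the next *T* animal, and *S100A9* was at 42.5 CPM in the same animal, against 10.2 CPM. These gaps took 0.791, 0.672 and 0.777 of the range of their group. *T* animal 13 also had the highest summed macrophage markers of the *T* group, at 1321 CPM, and the highest neutrophil and monocyte markers, at 286 CPM. *WSD* animal 23 had the highest macrophage markers of its group, at 1115 CPM, and the highest neutrophil and monocyte markers, at 268 CPM. *VCAN*, which fibroblasts also express, made up 240 of these 268 CPM. In *T* animal 13 it made up 230 of the 286 CPM. The part of these cells in the 3 values was not tested.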

How the results depend on the processing

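In *T* + *WSD* against *C* the 3 lower S100 DEGs stayed 3 with DESeq2, with RLE or upper-quartile scaling, without the abundant unnamed gene, with legacy=FALSE or robust=FALSE, with only the groups compared, with the batch, neutrophil and monocyte or macrophage covariate, and at every fold threshold. The number was 2 without a filter on low counts, 1 with at least 10 counts in every animal, which removes *S100A8* and *S100A9* from the test, and 0 with the mesothelial covariate, in the 16 libraries outside the batch and in the 8 of the batch. It was 2 or 3 with 1 animal left out. The fits to parts of the batch hold fewer animals, and the cause of the other losses was not tested. *S100A6* was at −1.001, −1.06 and −0.17 and *S100A9* at −3.11, −2.81 and −2.78 in the 16 libraries, the 8 libraries and the mesothelial fit, and *S100A8* at −2.91, −2.96 and −2.59, and −2.98 without a filter (adjusted p = 0.0672 by edgeR). With 1 animal left out, *S100A8* was between −3.23 and −2.56. Over all tested genes, DEGs in this comparison numbered 1522, with 900 to 1790 when 1 animal was left out and from 0 (the 8 libraries) to 2603 (no fold threshold) otherwise.

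In *T* + *WSD* against *T*, 2 members were called with DESeq2, with only the 2 groups and with the macrophage covariate, and 0 without a filter, with 10 counts in every animal, in the 8 libraries and with the mesothelial covariate. The number was 0 or 1 with 1 animal left out. *S100A9* was uncalled at −3.13 without a filter, −2.05 in the 16 libraries, −3.75 in the 8 and −2.81 with the mesothelial covariate, and between −3.36 and −2.10 with 1 animal left out. Called there were *S100A6* at −0.60 with only the 2 groups, *S100A8* at −2.69 with DESeq2 and −2.65 with the macrophage covariate, and *S100A11* at 0.76 in the 16 libraries. In *T* + *WSD* against *WSD*, 1 member, *S100A9*, was called with DESeq2 (−2.29) and with the macrophage covariate (−2.90). In *WSD* against *C*, *T* against *C* and the interaction, 0 members were called under every alternative run, while DESeq2 called 238, 7 and 481 of all genes and 431 and 1090 in *T* + *WSD* against *WSD* and against *T*. Of the 124 DEGs against *WSD* 66 were higher, and with upper-quartile scaling 79 of 106 were. Of the 574 against *T* 356 were higher, and with upper-quartile scaling 390 of 550 were.

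The log2 values that changed sign had edgeR or DESeq2 adjusted p of 0.518 or more in the fits where the sign turned. In *T* + *WSD* against *C*, *S100A1* turned to −0.057 in the 16 libraries and −0.20 with the mesothelial covariate. In *WSD* against *C*, *S100A1* turned to −0.12 in the 16 libraries, *S100A4* to 0.13 in the 8 libraries and 0.088 with the mesothelial covariate, and *S100A11* to −0.038 in the 8 libraries. In *T* against *C*, the 8 libraries turned *S100A4* to 0.31 and *S100A8* to 0.63. There *S100A9* turned to −0.42 with the batch covariate, −1.06 in the 16 libraries, −0.70 with the neutrophil and monocyte covariate and −0.085 with the macrophage covariate, and *S100A11* to −0.36, −0.013 and −0.0020 under the last 3. In *T* + *WSD* against *WSD*, *S100A1* was between 0.0044 and 0.068 in 9 fits, namely 0.0087 with DESeq2, 0.0098 with RLE, 0.055 with upper-quartile scaling, 0.0044 without the unnamed gene, 0.017 with 10 counts in every animal, 0.011 with only the 2 groups, 0.068 in the 16 libraries and 0.014 with either myeloid covariate. *S100A6* turned to 0.20 there with the mesothelial covariate. In *T* + *WSD* against *T*, *S100A1* turned to 0.24 in the 8 libraries, and *S100A4* and *S100A6* to 0.11 and 0.14 with the mesothelial covariate. For the interaction, *S100A4* turned to 0.018 with the mesothelial covariate, *S100A6* to −0.039 without a filter, −0.017 in the 16 libraries and −0.015 with the neutrophil and monocyte covariate, and *S100A8* to 0.35 in the 16 libraries.

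With 1 animal left out, *S100A1* was between −0.016 and 0.23 in *T* + *WSD* against *C*, −0.10 and 0.24 against *WSD*, −0.13 and 0.22 in *WSD* against *C*, and −0.30 and 0.038 for the interaction. *S100A4* was between −0.39 and 0.19 in *WSD* against *C* and −0.50 and 0.085 for the interaction. In *T* against *C*, *S100A8* was between −1.17 and 0.10, *S100A9* between −0.97 and 0.46, and *S100A11* between −0.12 and 0.16. *S100A6* was between −0.13 and 0.13 for the interaction. No paired analysis was possible because no replicate number is shared by 2 groups. At 2 to 568 counts an animal, depth limits *S100A8* and *S100A9* most.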

Other observations

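For the 2 members outside the rule on likeness, the most similar genes were looked up after their values were seen, again by r over the 24 animals with group means removed. *S100A1* was most like *ECHS1*, a mitochondrial enzyme of fatty acid oxidation (r = 0.910), *FLAD1*, which makes the cofactor FAD (0.909), and *PXMP2*, a peroxisomal membrane protein (0.892). *S100A11* was most like *CAP1*, an actin regulator (0.893), *CCDC88A* (0.886) and *KIAA0930* (0.872). Without the 2 animals farthest from the median of the S100 gene itself, r with *ECHS1* was 0.821 and r with *CAP1* was 0.780.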
